A study of Mus musculus with 48 samples.

Results

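Antibody heavy chain sequences of the lacrimal gland (LG) were divided by constant gene, and the IgA sequences of each gland were set against the sequences of every other class in the same gland. The IgA part of a gland held the rows whose constant gene was IGHA. The non-IgA part held the rows with IGHM, IGHD, IGHG1, IGHG2B, IGHG2C, IGHG3 or IGHE. All 24 LG samples of the series, out of 48 samples in all, contributed both parts, and the 24 spleen samples of the same mice served for comparison. Over the 24 glands, 152923 unique IgA sequences and 26311 unique non-IgA sequences entered the comparison.

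A B cell that switches class keeps its rearranged V, D and J segments and exchanges the constant region, so sequences of different classes can share a V(D)J rearrangement. IgA is the main antibody class of mucosal secretions, and the lacrimal gland houses plasma cells whose IgA is carried into the tear film. IgM is the class made before switching, and the IgG subclasses dominate in serum. The heavy chain complementarity-determining region 3 (HCDR3) spans the V-D-J junction and is the most variable stretch of the chain.

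The largest clonotypes of the glands are shown first, because they hold much of each part and because some of them cross the class boundary. A clonotype was defined by V gene, J gene and HCDR3 amino acids. The commonest HCDR3 nucleotide sequence of each is given 5′ to 3′, without the flanking cysteine and tryptophan codons. The 3 largest IgA clonotypes and the 3 largest non-IgA clonotypes were the following.
PBS-T 2, IgA, IGHV1-9/IGHJ2, ARGGNYFDY: gcaagagggggaaactactttgactac
PBS-T 8, IgA, IGHV10-3/IGHJ2, VGDSSGYTGDFDY: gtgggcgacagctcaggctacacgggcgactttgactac
NOD-FMT 5, IgA, IGHV1-72/IGHJ3: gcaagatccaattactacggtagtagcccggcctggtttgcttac
PBS-T 8, non-IgA, IGHV14-3/IGHJ4, ASNYDYDGYYAMDY: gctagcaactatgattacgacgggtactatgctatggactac
NOD-FMT 9, non-IgA, IGHV1-69/IGHJ3, ARELVFAY: gcaagggaactggtgtttgcttac
PBS-T 2, non-IgA, IGHV1-9/IGHJ2, YYGSSFDY: tactacggtagtagctttgactac
The IgA clonotype of PBS-T 2 held 52.0% of its part (95% Wilson interval 51.5 to 52.5), that of PBS-T 8 held 29.5%, and that of NOD-FMT 5 held 26.6%. The non-IgA clonotype of PBS-T 8 held 62.1% of its part and was IGHG2C, that of NOD-FMT 9 held 50.6% and was IgM, and that of PBS-T 2 held 50.3% and was mainly IGHG2B. In PBS-T 2 the leading clonotypes of both parts used IGHV1-9 and IGHJ2 with different HCDR3 sequences. Such intervals cover counting error only.

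All mice were C57BL/6, and feces of the mice to be gavaged were mixed between cages beforehand. NOD-FMT mice (10 LG samples) drank ampicillin, vancomycin and metronidazole for 7 days and were then, from 5 weeks of age, gavaged daily for 3 weeks with fecal supernatant. The donors were 30 NOD.B10.H2b animals, a Sjögren syndrome model strain, aged over 20 weeks. PBS-T mice (9 LG samples) had the same schedule with phosphate-buffered saline, and NC mice (5 LG samples, labelled NC1) were untreated animals of the same cohort. The labels call the mice of a group biological replicates. The samples are whole glands, so fewer cells of a class and less RNA per cell cannot be told apart. After sequences found in over 2 mice of a tissue were removed, an LG sample held 40105 to 264365 counts, each count being 1 consensus sequence from a unique molecular identifier.

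Several samples stood apart before any comparison. PBS-T 5 held 14168 IgA and 4046 non-IgA clonotypes, against medians of 642 and 238 over the 24 glands, and shared only 2.19% and 2.22% of them with its own spleen. NC 2 and NC 3 shared 60.7% and 71.0% of their IgA clonotypes with other glands, where the median was 17.3%. The tables of 11 glands were named as merged and were the only ones that listed the same sequence and class in several rows, so results are also given within these 11 and within the other 13. The merged tables were those of 6 NOD-FMT glands, 4 PBS-T glands and NC 4. The others were those of 4 NOD-FMT glands, 5 PBS-T glands and the remaining NC glands. Differences between the sets can therefore also reflect their groups.

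IgA made up nearly all counts of most glands. The IgA share was 96.7% ± 1.31 (SD, n = 10) in NOD-FMT glands, with a lowest value of 94.6%, a median of 96.9% and a highest value of 98.7%. In PBS-T glands it was 75.2% ± 29.0 (n = 9), with a lowest value of 13.9%, a median of 86.7% and a highest value of 97.1%. In the 5 NC glands it averaged 95.6% ± 3.93, from 88.6% to 97.8%. The groups overlapped: PBS-T 9 (13.9%), PBS-T 2 (42.3%), PBS-T 8 (72.4%) and PBS-T 3 (76.9%) lay far below every NOD-FMT gland, while PBS-T 4, 6 and 7 lay among them. The mean was 21.6 percentage points higher in NOD-FMT than in PBS-T glands (two-sided exact permutation test over 92378 splits of the mice, p = 0.00240). The same difference was 11.9 points within the merged tables (exact permutation p = 0.0190) and 29.4 points within the others (exact permutation p = 0.214). Leaving out each mouse in turn gave 13.9 to 24.3 points.

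The non-IgA part was mostly IGHG2B and IgM. Over 24 glands the median shares of non-IgA counts were 46.6% for IGHG2B, 30.5% for IgM, 13.9% for IGHG2C and 2.92% for IGHG1. IGHG2B led in NOD-FMT glands, with a range of 30.8% to 67.8% and first place in 9 of 10. In PBS-T glands IGHG2C reached 64.2% (PBS-T 8) and IGHG1 52.9% (PBS-T 4), against highest NOD-FMT values of 20.2% and 7.90%. In PBS-T 8 a single IGHG2C clonotype held 62.1% of non-IgA counts. IgM ran from 15.1% to 65.8% in NOD-FMT and from 10.1% to 56.8% in PBS-T glands. IgE was found in 6 of 24 glands, and IgD, which is co-expressed with IgM on unswitched B cells, made up at most 2.77% of non-IgA counts.

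**Figure D1:**
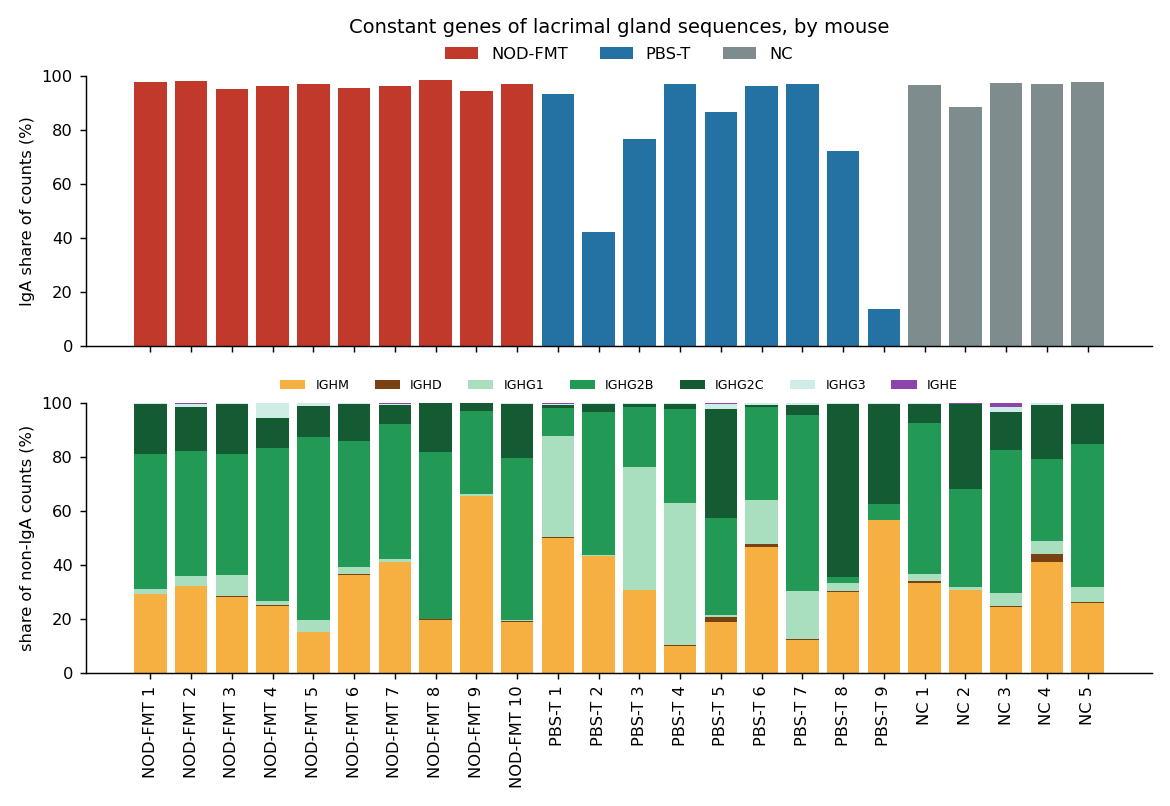
The upper panel shows the share of counts with the IGHA constant gene (percent, bars from 0) in each of the 24 glands, coloured by group, and the lower panel splits the remaining counts by constant gene (percent of non-IgA counts). All 10 NOD-FMT bars exceed 94.6%, while PBS-T 9 and PBS-T 2 stand at 13.9% and 42.3%.

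IgA sequences were less often unmutated. A sequence counts as unmutated when its V segment has no mismatch to the germline V gene, and mismatches accumulate by somatic hypermutation. The share of unique sequences without a mismatch was 24.6% ± 5.36 in the IgA part and 47.3% ± 11.7 in the non-IgA part (n = 24), a mean difference of -22.7 percentage points (exact sign-flip permutation test over mice, adjusted p = 3.22e-06 over 9 measures). It was lower in IgA in 23 of 24 glands, the exception being PBS-T 9 with 35.3% in IgA and 28.7% in non-IgA. In NOD-FMT glands the IgA values ran from 16.9% to 30.6% with a median of 27.0%, and the non-IgA values from 36.1% to 62.9% with a median of 49.4%, so the ranges did not overlap at the deposited depth. With both parts of each gland thinned to equal counts, the mean IgA minus non-IgA difference of these NOD-FMT glands was 1.33 ± 7.52 points. In PBS-T glands they ran from 16.5% to 35.3% (median 26.9%) and from 23.6% to 63.0% (median 42.7%) and overlapped. The NC glands 1 to 5 had IgA values of 19.7%, 22.9%, 19.6%, 16.3% and 19.8% against non-IgA values of 57.9%, 40.2%, 49.0%, 64.6% and 48.9%, again without overlap.

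The direction was the same against unswitched and switched sequences. Against IgM alone (57.8% ± 16.5 unmutated) the mean difference was -33.2 points, and against the IgG genes alone (38.2% ± 9.24) it was -13.6 points, with adjusted p = 6.44e-06 and 1.93e-05 by the exact sign-flip test. The IgA part held more counts than the non-IgA part in 22 of 24 glands, and the size of the difference changed with depth. When both parts of a gland were thinned to equal counts the shares were 42.8% and 47.8%, a difference of -5.08 points (lower in IgA in 15 of 24 glands, adjusted p = 0.0488). The mean difference was then 1.33 points in NOD-FMT and -3.93 points in PBS-T glands. Both lie above the mean of all glands, so the NC glands averaged lower than either treated group. Weighted by counts, 62.3% of IgA and 70.5% of non-IgA were unmutated, and the difference of -8.18 points did not pass the test (adjusted p = 0.147).

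The mean number of V mismatches pointed the same way but less firmly. It was 2.17 ± 0.738 per sequence in IgA and 1.79 ± 0.574 in non-IgA (difference 0.377, higher in IgA in 17 of 24 glands, exact sign-flip adjusted p = 0.0314). The NC glands showed the widest gap, with a mean of 2.91 ± 0.407 in IgA and 1.55 ± 0.329 in non-IgA and all 5 glands higher in IgA, although 5 mice cannot give an exact sign-flip p below 0.0625. In NOD-FMT glands the means were 1.75 ± 0.571 and 1.70 ± 0.536, and in PBS-T glands 2.21 ± 0.745 and 2.03 ± 0.680. IgM sequences carried 1.44 ± 0.667 mismatches, fewer than IgA (adjusted p = 0.00182), whereas IgG sequences carried 2.10 ± 0.812 and did not differ detectably from IgA (difference 0.0712, adjusted p = 0.690). With equal counts the difference between IgA and all non-IgA was 0.0368 (higher in IgA in 9 and lower in 15 of 24 glands, adjusted p = 0.821), and in NOD-FMT glands it was -0.463 ± 0.369. At the deposited depth it was 0.0700 in the merged tables (adjusted p = 0.812) and 0.636 in the others (adjusted p = 0.00330). All NC glands but NC 4 are among the others. The call was also lost weighted by counts (adjusted p = 0.211), without clonotypes of both parts (0.121) and without PBS-T 2, 8 and 9 (0.0750).

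**Figure D2:**
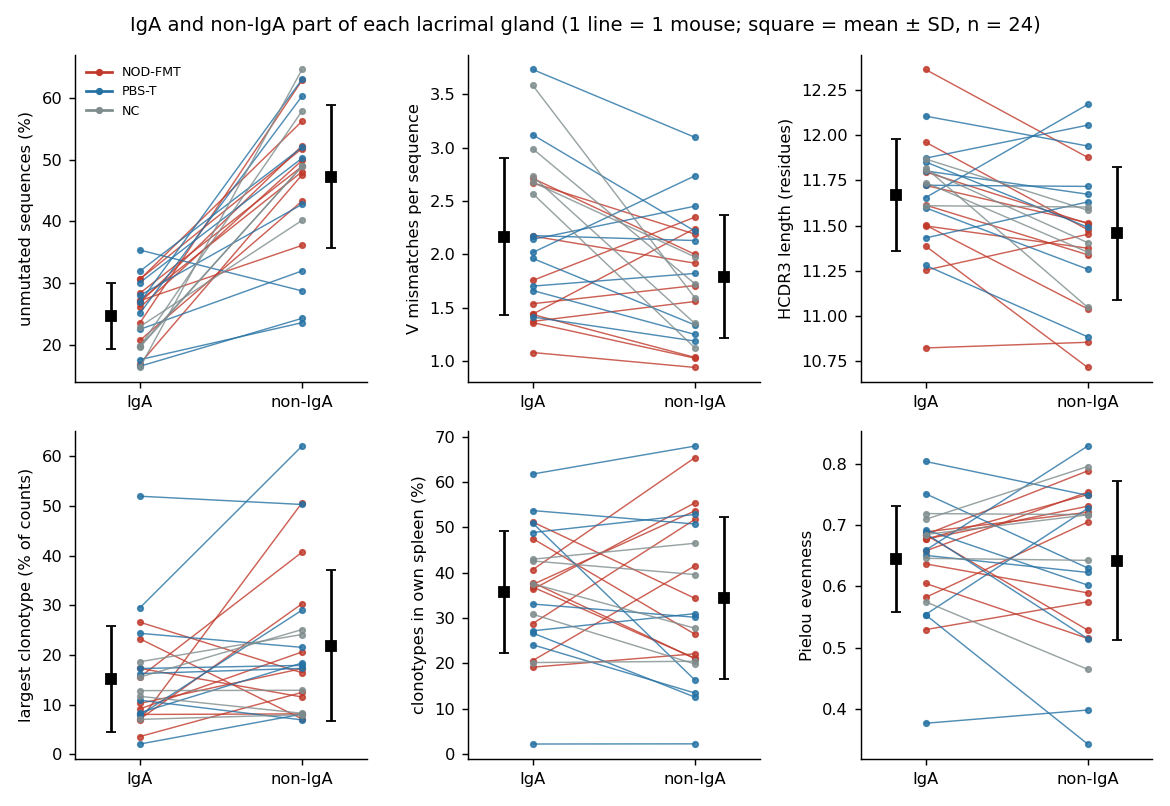
Each line joins the IgA and the non-IgA value of the same gland for 6 measures (unmutated sequences in percent, V mismatches per sequence, HCDR3 length in residues, largest clonotype in percent of counts, clonotypes found in the own spleen in percent, Pielou evenness from 0 to 1), coloured by group, with squares and bars for mean ± SD of 24 mice. The lines for unmutated sequences rise toward non-IgA in 23 of 24 glands, while those for the own spleen and evenness cross.

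The same comparison in the spleen gave a much wider gap. Spleen IgA sequences carried 4.00 ± 0.725 V mismatches and spleen non-IgA sequences 0.980 ± 0.438 (n = 24). The gland difference was smaller than the spleen difference in all 24 mice, by a mean of 2.64 mismatches (difference of differences -2.64, exact sign-flip adjusted p = 2.98e-07). Unmutated sequences made up 20.9% ± 4.35 of spleen IgA and 72.0% ± 7.71 of spleen non-IgA, a difference of -51.1 points, and the gland difference was 28.4 points nearer 0 (24 of 24 mice, adjusted p = 2.98e-07). Side by side, IgA had a mean of 2.17 mismatches in the gland and 4.00 in the spleen, and non-IgA 1.79 and 0.980. IgA made up 4.06% to 24.3% of spleen counts, so the deeper class there was the non-IgA part. The spleen non-IgA part is not split by class here, so the non-IgA parts of the tissues may differ in their IgM and IgG shares. The evenness difference also varied between tissues, by 0.0829 (adjusted p = 0.00463), and this call was lost without the removal of shared sequences (0.0595, adjusted p = 0.0992).

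**Figure D3:**
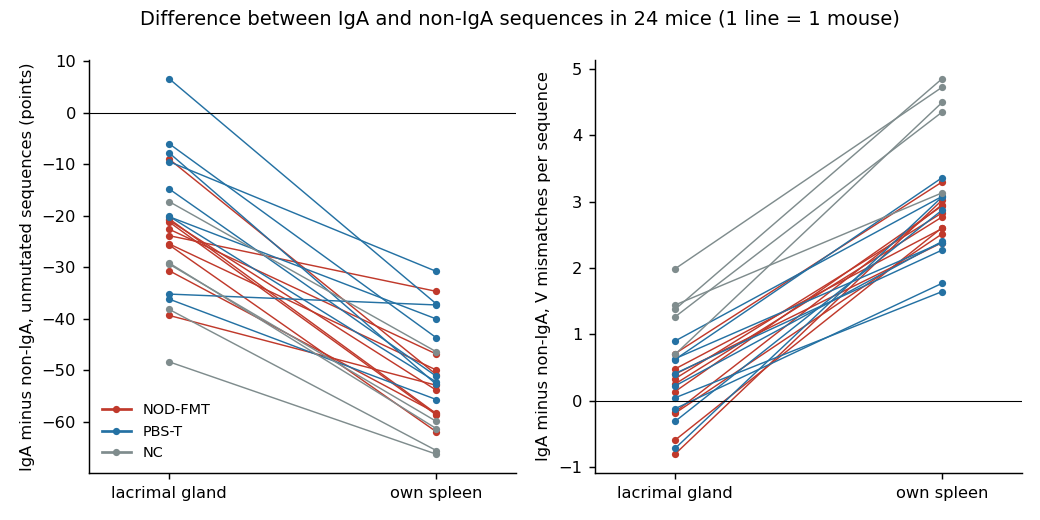
Each line joins the IgA minus non-IgA difference of a mouse in the lacrimal gland with that in its own spleen, for unmutated sequences (left, percentage points) and V mismatches per sequence (right). Every line falls on the left and rises on the right, around mean spleen differences of -51.1 points and 3.02 mismatches.

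HCDR3 length differed by a fraction of a residue. The mean over clonotypes was 11.67 ± 0.309 residues in IgA and 11.46 ± 0.368 in non-IgA (difference 0.213 residues, longer in IgA in 19 of 24 glands, exact sign-flip adjusted p = 0.00942). IgM clonotypes were the shorter ones, at 11.19 ± 0.497 residues (difference 0.484, 22 of 24 glands, adjusted p = 2.74e-04). IgG clonotypes averaged 11.71 ± 0.509 residues (difference -0.0383, adjusted p = 0.690). The length difference fell to 0.0386 residues when deposited rows with a single count were left out (adjusted p = 0.618) and to 0.135 with equal counts (adjusted p = 0.0716). Weighted by counts it turned to -0.0339 residues, with 12 glands higher and 12 lower (adjusted p = 0.885), and neither the merged tables nor the others passed alone (adjusted p = 0.0857 and 0.0802). Clonotypes with a single count made up a median of 43.5% of the IgA part and 59.7% of the non-IgA part.

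The net charge of the HCDR3, taken as lysines and arginines minus aspartates and glutamates, was -0.0824 ± 0.185 per clonotype in IgA and -0.159 ± 0.167 in non-IgA. The difference of 0.0766 (higher in IgA in 16 of 24 glands) had an adjusted p of 0.0329 by the exact sign-flip test. That call was lost when any of 9 single mice was left out (NOD-FMT 1, 3, 5, 6, 7, 9 or 10, PBS-T 8 or 9). It was also lost against IgG alone (0.0512, adjusted p = 0.661), with a minimum of 2 counts (0.618), weighted by counts (0.825), with the stricter filter on shared sequences (0.0596), without PBS-T 2, 8 and 9 (0.146) and within the merged tables and the others (0.266 and 0.0802).

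V genes of the IGHV1 family, the largest V family of the mouse, took a larger part of IgA than of non-IgA clonotypes. IGHV1 made up 63.8% ± 6.15 of IgA clonotypes (lowest 51.4%, median 64.6%, highest 78.2%) and 51.3% ± 8.39 of non-IgA clonotypes (35.4%, 52.2% and 70.9%). The share was higher in IgA in 23 of 24 glands, by 12.4 points on average (exact sign-flip adjusted p = 2.75e-05). The 11 families tested had a mean share of at least 1% in either part, which IGHV4 reached in non-IgA only. Of them, 6 passed (54.5%), 1 higher in IgA (9.09%) and 5 lower (45.5%). The lower families were IGHV2 (4.63% against 8.15%), IGHV3 (4.33% against 5.95%), IGHV4 (0.677% against 1.72%), IGHV8 (2.90% against 4.12%) and IGHV9 (2.89% against 4.92%), with adjusted p from 1.48e-04 to 0.00519. IGHV5 (6.74% against 7.99%), IGHV6, IGHV7, IGHV10 and IGHV14 did not pass. Shares of a part sum to 100%, so the families are not independent of each other. Against IgG alone, IGHV8 was the only family that passed as lower and IGHV7 the only one that passed as higher, and the IGHV4 difference was 0.00143 points. Within the 13 tables not merged IGHV8 was again the only family that passed as lower. The IGHV3 difference turned to 0.433 points with a minimum of 2 counts and to 0.0827 points weighted by counts (adjusted p = 0.650 and 0.896).

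Split by class, IGHV1 was 20.6 points higher in IgA than in IgM (adjusted p = 3.93e-06) and 3.07 points higher than in IgG (adjusted p = 0.218). With a minimum of 2 counts per deposited row the IGHV1 difference was 3.01 points (adjusted p = 0.489) and none of the families passed the sign-flip test, and weighted by counts it was 4.01 points (adjusted p = 0.636). Non-IgA parts also held V genes that have no coding entry in the C57BL/6 annotation used here (GENCODE M21 on GRCm38), 45 of the 141 V gene names found in the glands. Such genes made up 4.62% to 19.8% of non-IgA clonotypes in the 11 merged tables (median 12.5%) and 0.292% to 4.76% in the other 13 (median 1.93%). In IgA the range was 0% to 3.17% over all glands and in the spleens it was at most 0.919%. Of the 709 non-IgA rows with such a gene, 89.3% had a single count and 70.8% were IgM. With these genes left out the IGHV1 difference was 11.6 points (adjusted p = 2.36e-05). With them kept, it was 18.6 points in the merged tables and 7.26 points in the others (adjusted p = 0.00269 and 0.0282). It was not computed for the merged tables without these genes.

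**Figure D4:**
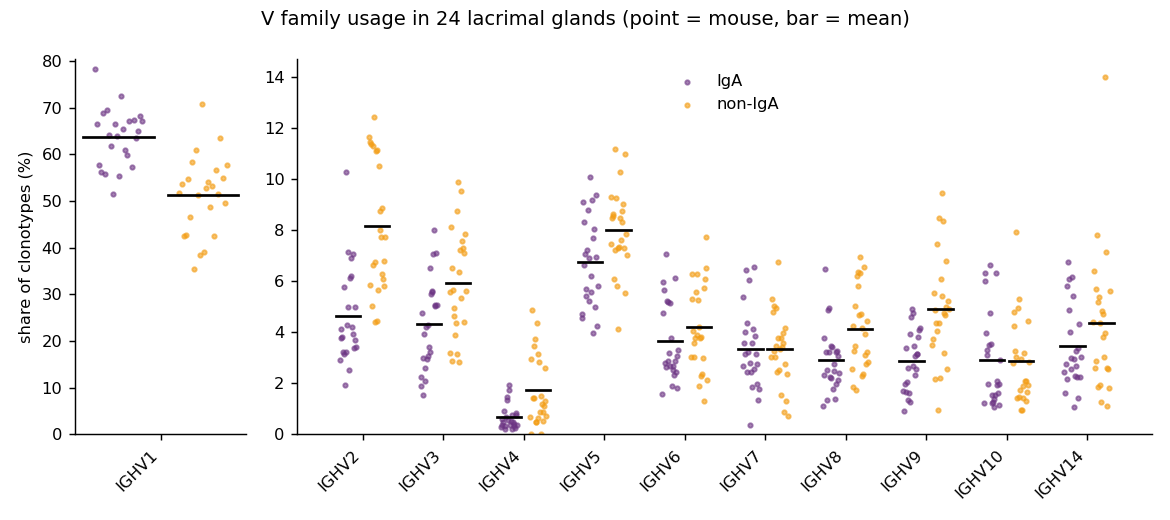
Each point is the share of clonotypes (percent) that a V family takes in the IgA part or the non-IgA part of a gland, and bars mark means of 24 glands. IGHV1, on its own scale at the left, lies higher in IgA (mean 63.8% against 51.3%), and IGHV2 and IGHV9 lie lower.

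Among single V genes, 4 of the IGHV1 family were called higher in IgA. The edgeR quasi-likelihood test, run on numbers of clonotypes with the mouse as a block, kept 10 of 141 genes after its filter on low numbers, 7 of them IGHV1. It called 4 of these higher (40%) and 0 lower, with 0 lower also at an unadjusted p under 0.05. The parts of 1 class alone could meet the filter, so a gene could enter through the class where it was higher. The numbers higher and lower are therefore not a balanced count of both directions. IGHV1-53 (chr12:115158403-115158835, minus strand, an immunoglobulin V segment gene) made up 6.08% ± 2.05 of IgA clonotypes (lowest 2.81%, median 6.06%, highest 11.0%) and 3.24% ± 1.42 of non-IgA clonotypes (1.26%, 3.05% and 7.14%). It was higher in IgA in 22 of 24 glands, with a log2 fold change of 0.91 ± 0.14 (SE, adjusted p = 7.68e-07, edgeR). The NC glands had the highest means for it in both parts, 7.73% and 4.05%.

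IGHV1-72 (chr12:115757984-115758461) made up 4.33% ± 2.30 of IgA and 2.57% ± 1.80 of non-IgA clonotypes, with a log2 fold change of 0.75 ± 0.17 (adjusted p = 5.33e-04, edgeR, 19 of 24 glands). IGHV1-55 (chr12:115208095-115208591, 3.62% against 2.69%) and IGHV1-64 (chr12:115507545-115508031, 4.12% against 3.08%) had log2 fold changes of 0.48 ± 0.14 and 0.53 ± 0.19 (adjusted p = 0.00637 and 0.0232, edgeR). IGHV1-64 was higher in IgA in 9 of 10 NOD-FMT, 5 of 9 PBS-T and 3 of 5 NC glands, and in the 13 tables not merged its log2 fold change, without the filter, was -0.02 (adjusted p = 0.956, edgeR). The parts overlapped for all 4 genes. IGHV1-53 and IGHV1-72 were also called by DESeq2 and with TMM scaling, whereas IGHV1-55 and IGHV1-64 were not. With a minimum of 2 counts none of the 4 passed (log2 fold changes of 0.14 to 0.45).

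The count of genes lower in IgA depended on the filter. Among the same 10 genes, DESeq2 called 2 higher and 2 lower (IGHV3-6 and IGHV9-3, named after their values were seen), and edgeR with TMM scaling called 2 higher and 0 lower (1 lower at an unadjusted p under 0.05). Without the filter, edgeR tested 141 genes and called 54 (38.3%), of which 13 were higher (9.22%) and 41 lower (29.1%), while IGHV1, with 64 of the 141 genes, had 12 higher and 10 lower. Of the 41 lower genes 27 have no coding entry. When the genes without a coding entry were also left out it called 9 higher and 15 lower of 96, and with a minimum of 2 counts 0 higher and 0 lower of 117 (6 and 8 at an unadjusted p under 0.05). An exact sign-flip test of shares over the 42 genes with a mean share of at least 1% in either part called 15 (35.7%), 8 higher (19%) and 7 lower (16.7%). A gene could enter through the part where it was higher, so these numbers depend on that choice too.

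**Figure D5:**
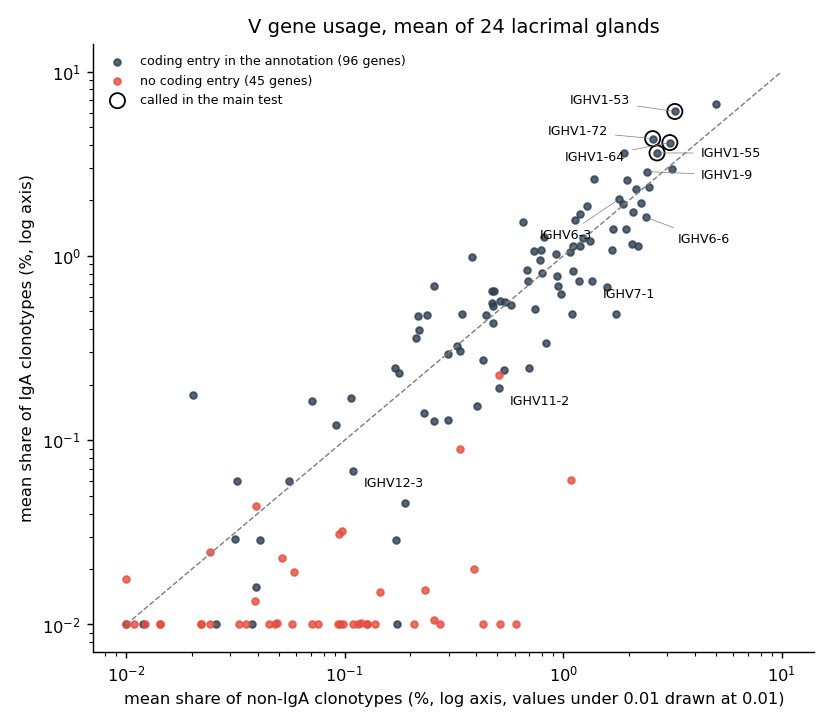
Each point is a V gene, placed by its mean share of non-IgA clonotypes (horizontal, percent, log axis) and of IgA clonotypes (vertical, percent, log axis) over 24 glands, with the 45 genes without a coding entry in red and the 4 genes called in the main test circled. The 4 circled genes lie above the dashed line of equal shares, and 41 of the 45 red points have a lower mean in IgA. These points are not the 41 genes called lower without the filter, of which 27 have no coding entry. The number with a lower mean over all 141 genes is not given.

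Genes linked to innate-like B-1 cells were scarce in both classes. IGHV11-1, IGHV11-2 and IGHV12-3, which encode antibodies to phosphatidylcholine, together made up 0.259% ± 0.467 of IgA and 0.617% ± 0.554 of non-IgA clonotypes. None of the 3 passed the filter of the main test. Without it 1 of 3 was lower and 0 higher (29.1% and 9.22% over all 141 genes), with a median log2 fold change of -0.72 against -0.43 over all 141 genes. IGHV11-2 was the lower gene (0.191% against 0.507%), although it supplied the largest IgA clonotype of NC 2, which held 18.6% of that part. IGHV7-1, the V gene of classical phosphorylcholine antibodies, made up 0.727% ± 0.510 of IgA and 1.35% ± 0.999 of non-IgA clonotypes (lower in IgA in 17 of 24 glands, sign-flip adjusted p = 0.00679, edgeR without the filter adjusted p = 0.0331). Against IgG alone its difference was 0.389 points in the other direction. IGHV7-1 entered the sign-flip test through its non-IgA share only.

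IGHV6-3, IGHV6-6 and IGHV1-9 did not pass the test in either direction. IGHV6-3 made up 2.03% ± 1.36 of IgA and 1.80% ± 1.09 of non-IgA clonotypes (sign-flip adjusted p = 0.704), and its IgA share was 2.97% ± 1.50 in NOD-FMT and 1.31% ± 0.874 in PBS-T glands. IGHV6-6 was at 1.62% ± 0.750 and 2.38% ± 1.47 (sign-flip adjusted p = 0.0704), and IGHV1-9 at 2.87% ± 2.38 and 2.42% ± 1.70 (edgeR adjusted p = 0.637). Families nearest the D segments (IGHV5 and IGHV2, 37 genes) took 11.4% ± 3.11 of IgA and 16.1% ± 3.42 of non-IgA clonotypes. Without the filter 0 of these 37 genes were higher and 15 lower (9.22% and 29.1% over all 141 genes), with a median log2 fold change of -1.28. Of those 15, 12 have no coding entry, and 3 of the 17 coding genes were lower (IGHV2-2, IGHV2-5 and IGHV2-9, named after their values were seen), against 14 of 96 coding genes in all. The distal families (IGHV1 and IGHV8, 69 genes) took 66.7% ± 5.57 and 55.4% ± 8.38, with 12 genes higher and 13 lower without the filter, 9 of the 13 without a coding entry, and a median of 0.11.

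J gene usage differed little. IGHJ2 made up 35.7% ± 4.64 of IgA and 32.6% ± 4.99 of non-IgA clonotypes (higher in IgA in 18 of 24 glands), and IGHJ4 23.4% ± 3.69 and 26.1% ± 4.99 (lower in 18 of 24). Both passed the exact sign-flip test at adjusted p = 0.0428, so that 2 of 4 J genes were called (50%), 1 higher (25%) and 1 lower (25%). IGHJ1 (17.8% against 17.7%) and IGHJ3 (23.1% against 23.6%) did not. The IGHJ2 call was lost without any 1 of 16 mice and the IGHJ4 call without any 1 of 15, and neither passed with a minimum of 2 counts, weighted by counts, against IgG alone or within the tables not merged.

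Counts were more concentrated in the non-IgA part by some measures. The largest clonotype held 15.1% ± 10.7 of IgA counts (lowest 2.06%, median 12.2%, highest 52.0%) and 21.9% ± 15.2 of non-IgA counts (6.92%, 17.6% and 62.1%). The share was lower in IgA in 17 of 24 glands (mean difference -6.80 points, exact sign-flip adjusted p = 0.0329). That call was lost without NOD-FMT 1, 3, 7, 9 or 10 or PBS-T 3 or 8, with adjusted p up to 0.0659. It was also lost with the stricter filter on shared sequences (-5.07 points, adjusted p = 0.0532), within the merged tables and within the others (adjusted p = 0.142 and 0.144), and without PBS-T 2, 8 and 9 (adjusted p = 0.0763). Against IgM alone the difference was -15.7 points, and against IgG alone -13.4 points (adjusted p = 0.00264 and 0.00386). The largest clonotype held 30.7% ± 18.7 of IgM and 28.5% ± 22.8 of IgG counts. Splitting a part by class can itself raise this share, so these differences cannot tell whether the whole non-IgA part is more concentrated. Pielou evenness, which is 1 when all clonotypes are equally large, was 0.645 ± 0.0865 and 0.642 ± 0.130 (adjusted p = 0.885). With equal counts it was 0.744 and 0.646 (difference 0.0982, adjusted p = 1.85e-04), while 1 minus the Gini coefficient was lower in IgA (difference -0.0677, adjusted p = 0.00247), so the direction rested on the index and the depth.

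The 24 largest IgA clonotypes used 14 V genes and the 24 largest non-IgA clonotypes 19. IGHV1 supplied 16 of the former and 15 of the latter, and among the IgA ones 6 used IGHV1-53 and 4 used IGHV1-9. Over all clonotypes, IGHV1 made up 63.8% of IgA and 51.3% of non-IgA. IGHV1-53 made up 6.08% of all IgA clonotypes, and IGHV1-9 had group means of 2.12% to 3.87%. The largest non-IgA clonotype was IGHG2B in 14 glands, IgM in 6, IGHG2C in 2 and IGHG1 in 2. The commonest sequence was unmutated in 15 of 24 leading IgA clonotypes and in 20 of 24 leading non-IgA clonotypes. Some leading IgA clonotypes were nearly identical between mice, and differing bases are in capitals below.
NOD-FMT 8, IGHV1-9/IGHJ2, ARGGDYFDY: gcaagagggggCGactactttgactac
PBS-T 1, IGHV1-9/IGHJ2, ARGGNYFDY: gcaagagggggTAactactttgactac
PBS-T 2, IGHV1-9/IGHJ2, ARGGNYFDY: gcaagagggggAAactactttgactac
NC 1, IGHV1-53/IGHJ1, ATNWDRYFDV: gcaaCCaactgggacaggtacttcgatgtc
NC 4, IGHV1-53/IGHJ1, ARNWDRYFDV: gcaaGAaactgggacaggtacttcgatgtc
The IGHV1-9 clonotypes of NOD-FMT 8 and PBS-T 1 differ by D5N, counted from the first HCDR3 residue, and those of NC 1 and NC 4 by T2R. They held 8.01% of IgA counts in NOD-FMT 8, 8.36% in PBS-T 1, 52.0% in PBS-T 2, 15.5% in NC 1 and 11.7% in NC 4. The PBS-T 2 clonotype was also present in 5 other glands and in the spleens of 13 other mice.

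Few clonotypes were present in both parts of a gland, but they were large. A median of 4.18% of IgA clonotypes (range 1.48% to 7.73%) and 12.7% of non-IgA clonotypes (mean 15.7% ± 11.3) occurred in both. They held 4.02% to 77.6% of IgA counts (median 30.0%) and 21.3% to 75.6% of non-IgA counts (median 55.2%). The same clonotype led both parts in NOD-FMT 5, PBS-T 7 and PBS-T 9. In PBS-T 7 it was IGHV1-22/IGHJ1 ARFYYGSSYWYFDV (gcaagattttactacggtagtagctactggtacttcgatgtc), with 17.3% of IgA and 17.9% of non-IgA counts. In PBS-T 9 it was IGHV1-72/IGHJ2 ARYHYSNPYYFDY (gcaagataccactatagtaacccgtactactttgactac), with 16.2% of IgA counts and 17.3% of non-IgA counts, the latter nearly all IGHG2C. In NOD-FMT 5 it was the IGHV1-72/IGHJ3 clonotype shown above, with 26.6% and 16.4%.

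Clonotypes of both classes differed from those of a single class. A median of 20.4% of their sequences were unmutated (7.43% to 32.7%), against 28.5% for clonotypes found only in IgA (15.9% to 41.8%) and 51.5% for those found only in non-IgA. Their mean number of V mismatches was nevertheless 1.77 ± 0.800, against 2.18 ± 0.692 for IgA-only and 1.91 ± 0.596 for non-IgA-only clonotypes. A mean of 74.1% ± 22.5 of them were also in the own spleen, against 34.1% ± 13.0 of IgA-only and 27.8% ± 15.4 of non-IgA-only clonotypes. These are descriptions, since a clonotype with more counts is more likely to be seen in both parts and in the spleen.

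Similar shares of both classes recurred in the own spleen. The share was 35.8% ± 13.4 for IgA (lowest 2.19%, median 37.1%, highest 61.8%) and 34.3% ± 17.9 for non-IgA (2.22%, 30.6% and 67.9%). The difference was 1.45 points, with 12 glands higher in IgA and 12 lower (exact sign-flip adjusted p = 0.722). It was -5.86 points in the tables not merged (exact sign-flip adjusted p = 0.125) and positive in the merged ones, also without passing. The small difference over all 24 glands thus averages sets of tables with opposite signs. In the spleens of other mice a median of 2.24% of IgA and 3.42% of non-IgA clonotypes were found. Own minus other spleens gave 33.3 ± 12.9 and 30.7 ± 17.3 points (adjusted p = 0.498). IgM clonotypes were below IgA on this measure (24.9 ± 16.1, difference 8.40, adjusted p = 0.0221), and IgG clonotypes at 39.7 ± 18.7 (difference -6.43, adjusted p = 0.0860). With both parts thinned to equal counts, which keeps the larger clonotypes more often, 61.3% ± 18.8 of IgA and 35.3% ± 19.2 of non-IgA clonotypes were in the own spleen (difference 26.0, higher in 22 of 24 glands, adjusted p = 5.74e-05). The largest IgA clonotype was in the own spleen in 23 of 24 mice and the largest non-IgA clonotype in 20 of 24.

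IgA clonotypes were more often found in another gland, at 20.6% ± 17.5 against 14.4% ± 12.5 for non-IgA (difference 6.21 points, 16 of 24 glands, exact sign-flip adjusted p = 0.00942). In NOD-FMT glands the shares were 10.01% ± 4.95 and 10.34% ± 3.23, with IgA higher in 4 of 10. Against IgG alone the difference was 1.57 points and the call was lost (adjusted p = 0.621), as it was within the merged tables and within the others (adjusted p = 0.0857 and 0.125). Within these sets of tables, matches were still sought in all other glands of the series. In NC 1 to 5 the IgA shares were 21.3%, 60.7%, 71.0%, 42.7% and 21.5%. NC 2, 3 and 4 exceeded every treated gland, while NC 1 and NC 5 lay among the PBS-T glands, which ran from 6.46% to 41.7%. With a minimum of 2 counts the difference was 2.78 points (adjusted p = 0.106), and with equal counts 3.38 points (adjusted p = 0.205). The stricter filter kept only sequences found in 1 mouse of a tissue, and the shares then fell to 10.9% ± 7.24 and 7.24% ± 5.09. The difference was 3.64 points (exact sign-flip adjusted p = 0.00804), so the level of sharing rested much on sequences identical between mice. Of 29692 distinct IgA clonotypes 93.5% occurred in a single gland, as did 96.4% of 9728 non-IgA clonotypes.

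The most widely shared clonotypes were small in most glands. Sequences found in over 2 mice of a tissue had been removed beforehand. That removal can lower the shares and the numbers of glands and spleens given for these clonotypes and for the non-IgA ones below. Values of single clonotypes without this removal were not computed. Among IgA clonotypes, IGHV1-78/IGHJ2 AREVAYYGNYDY (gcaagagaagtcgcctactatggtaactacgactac) was in 11 glands, at 1.91% of the IgA part of PBS-T 5 and at most 0.0163% elsewhere, and in 0 of 24 spleens. IGHV9-4/IGHJ2 ARVWDLDC (10 glands) had the same pattern, with 0.670% in PBS-T 5 and at most 0.00537% elsewhere. IGHV1-76/IGHJ2 ARRGDGYYFDY (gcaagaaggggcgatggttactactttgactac) was in 10 glands, 5 NOD-FMT and 5 PBS-T, and in 19 spleens, with a highest share of 4.78% in PBS-T 1. IGHV3-6/IGHJ2 ARGGDYFFDY was in 10 glands at no more than 0.0710%. IGHV6-3/IGHJ3 TGDGFAY (acgggtgacgggtttgcttac) was in 9 glands, all NOD-FMT, and in 11 spleens, with a highest share of 2.39% in NOD-FMT 6 and a median of 0.136%.

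The most shared non-IgA clonotypes included 3 that likewise peaked in PBS-T 5 and were in 0 spleens: IGHV2-2/IGHJ4 ARWWLLGAMDY (9 glands, 8.07% in PBS-T 5), IGHV1-63/IGHJ2 ARSGGDY (7 glands, 2.64%) and IGHV1-64/IGHJ1 ARGYYGNYWYFDV (6 glands, 2.07%). IGHV3-6/IGHJ1 ARYFDV was in 5 glands with 1.11% in PBS-T 5. IGHV11-2/IGHJ1 MRYGNYWYFDV (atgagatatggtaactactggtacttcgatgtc) was in 5 glands at no more than 0.0749%, in no IgA part, and in 23 of 24 spleens. The clonotypes that peaked in PBS-T 5 occurred otherwise mostly in PBS-T and NC glands. The leading HCDR3 nucleotide sequence of PBS-T 5 was in 10 of 11 glands for AREVAYYGNYDY, 10 of 10 for ARVWDLDC and 9 of 9 for ARWWLLGAMDY. It was in 7 of 7 for ARSGGDY, 6 of 6 for ARGYYGNYWYFDV and 3 of 5 for ARYFDV. For the others, that of the gland with the highest share was in 1 of 10 (ARRGDGYYFDY), 1 of 9 (TGDGFAY), 5 of 10 (ARGGDYFFDY) and 4 of 5 (MRYGNYWYFDV).

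The IgA minus non-IgA difference did not differ between NOD-FMT and PBS-T glands by more than the test allowed for any of the 9 measures, with adjusted p from 0.0634 to 0.811 (exact permutation test). The nearest was the share found in other glands, which was 0.332 points lower in IgA than in non-IgA in NOD-FMT glands (difference -0.332 ± 3.96) and 8.68 ± 8.16 points higher in PBS-T glands. For unmutated sequences the differences were -23.9 ± 7.75 points in NOD-FMT, -15.9 ± 13.8 in PBS-T and -32.4 ± 11.6 in NC glands. The group difference of -8.02 points did not pass (adjusted p = 0.383). The NOD-FMT direction turned with depth and weighting: the differences were 1.33 ± 7.52 points in NOD-FMT and -3.93 ± 7.29 in PBS-T glands with equal counts, and 4.42 ± 14.9 and -16.6 ± 19.7 weighted by counts. For IGHV1 the IgA share was higher in 10 of 10 NOD-FMT, 8 of 9 PBS-T and 5 of 5 NC glands. For single V genes the edgeR test of the difference between groups called 0 of 8 genes (0%), with 0 at an unadjusted p under 0.05. Some alternatives did pass by the exact permutation test. Against IgM alone the group difference was -12.6 points for other glands and 0.302 for net charge (adjusted p = 0.0270 for both), and within the merged tables it was -14.5 points for other glands (adjusted p = 0.0429). Against IgG alone the own spleen share showed a group difference of -19.3 points (exact permutation adjusted p = 0.0170), with IgA minus IgG lower in NOD-FMT than in PBS-T glands.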

How the data were processed

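Heavy chain transcripts of lacrimal glands and spleens were amplified from total RNA, with constant region primers that carried unique molecular identifiers (UMIs) and with V gene primers, and sequenced. Per the study's methods, the authors merged read pairs with PEAR, filtered them on quality, built consensus sequences from UMI clusters without singletons, named constant genes with IMGT and V and J genes with IgBLAST. The release of the germline set is not given in the sources used here. The deposited counts are numbers of consensus sequences per unique sequence and class, and the deposited mutation values are V segment mismatches to germline. What made some tables merged is not stated, and their repeated rows were summed, except that a minimum of 2 counts was applied to each row as deposited. The labels name mm10, and gene positions are from GENCODE M21 on GRCm38.

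Sequences found in over 2 mice of a tissue were removed (9.82% of IgA and 9.93% of non-IgA counts), which left 15749 to 259453 IgA and 1243 to 97604 non-IgA counts per gland. The study's methods give a similar rule but report a far smaller share removed for the lacrimal gland. The reason for this gap was not tested. No gland row lacked a named constant gene. Mismatches and unmutated shares are over unique sequences, and length, charge and gene usage over clonotypes. The mouse was the unit. IgA minus non-IgA was tested by an exact two-sided sign-flip permutation over 24 mice (smallest p 1.19e-07) and the group difference by exact permutation over 92378 splits of 19 mice, with Benjamini-Hochberg adjustment over 9 measures and a threshold of 0.05. V genes were tested with edgeR 4.0.16 (quasi-likelihood, mouse as block, filterByExpr) on numbers of clonotypes, with DESeq2 1.42.0 as an alternative, in R 4.3.3. Other steps used Python 3.11.15, pandas 2.3.3 and SciPy 1.17.1. Thinned values are means of 10 draws. The scripts were tested on simulated data. V genes named are those called by edgeR with the filter and a mean share of at least 1%, the members of the phosphatidylcholine list, and IGHV6-3, IGHV6-6, IGHV1-9 and IGHV7-1 whatever their result. Others are named as genes of a named clonotype or after their values were seen. Clonotypes named are the largest of a part and the 5 held by most glands. The comparison, gene lists and tests were chosen with earlier results of these data known.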

Additional observations from a re-analysis of the deposited data

Results flagged for a closer look

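The IgA minus non-IgA difference of V mismatches was smaller in the gland than in the own spleen, by -2.64 mismatches per sequence, in all 24 mice. That of the unmutated share lay 28.4 points nearer 0 in the gland, and that of evenness differed by 0.0829. These 3 were picked out because the same comparison differed between tissues by the exact sign-flip test, with values and adjusted p given above.

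A further 4 values were picked out because 1 gland stood far from the rest of its group by Dixon's test. The difference in HCDR3 net charge was -0.230 in NOD-FMT 8, while IgA was higher in the other 9 NOD-FMT glands. The own spleen share was 34.6 points higher in IgA in PBS-T 1. The share of non-IgA clonotypes found in other glands was 38.1% in PBS-T 7. The IgA share of counts was 88.6% in NC 2. In all, 84 groups of values were checked, and chance alone picks out about 1 in 20.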

How the results depend on the processing

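Of 556 values recomputed under 30 settings, leaving single mice out apart, 365 stayed the same, 105 became weaker, 26 stronger, 55 changed sign and 5 moved. For tested differences, the same means the same direction and side of the threshold, and weaker or stronger means a lost or gained call. For numbers of genes called, these terms compare the numbers. For shares of named V genes, the same means a shift below the SD of the paired differences, and moved a larger one. The alternatives that leave out PBS-T glands or V genes without a coding entry, apply a minimum of 2 counts to families and J genes, or combine a choice with no low-number filter, were chosen after the data were seen. The lower unmutated share of IgA kept its call in all but the weighting by counts. With equal counts the difference was -5.08 points over 24 glands (exact sign-flip adjusted p = 0.0488). It was 1.33 ± 7.52 points in NOD-FMT and -3.93 ± 7.29 points in PBS-T glands. Both lie above the mean of all 24 glands, so the NC glands averaged lower still and the call rests in part on them. Whether it holds without them was not tested. Group differences that gained a call were those for other glands and charge against IgM, own spleen and own minus other against IgG and in the tables not merged, and other glands in merged tables and without PBS-T 2, 5, 8 and 9. The cause of each change below was not tested. Differences are IgA minus non-IgA, and group differences are NOD-FMT minus PBS-T.

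Without removal of shared sequences the differences were -0.00428 for evenness, -0.252 points for own spleen, -0.868 for IGHJ1 and -0.26 for IGHV7, J genes lower numbered 0, and the evenness contrast with the spleen was 0.0595. Stricter removal gave -5.07 for the largest clonotype and 0.0682 for charge. A minimum of 2 counts gave 0.0386 for length, -0.012 for evenness, 2.78 for other glands (group 0.936), 0.0387 for charge, -1.39 for IGHJ1, 1.72 for IGHJ3, 0.433 for IGHV3 and 0.194 for IGHV6, with 0 J genes and 0 families called either way. Against IgM alone, evenness by group was 0.0317, own minus other spleens 8.40, other glands by group -12.6, charge by group 0.302, IGHJ1 -1.85, IGHV7 -1.45 and IGHV10 -0.797, with 0 J genes lower. Against IgG alone, length was -0.0383, mismatches 0.0712, largest clonotype by group 8.71, own spleen -5.94 (group -19.3), own minus other -6.43 (group -17.8), other glands 1.57, charge 0.0512 (group -0.102), IGHJ3 0.607, IGHV4 0.00143 and IGHV6 0.445, with 0 J genes called, 1 family lower and 1 V gene higher.

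With V genes without a coding entry left out, own spleen was -0.000849, IGHJ1 -0.247 and IGHV7 -0.255. Without clonotypes of both parts, mismatches were 0.272, evenness -0.00931, largest clonotype by group 0.343 and own minus other 7.52. With equal counts, length was 0.135, mismatches 0.0368, unmutated by group 5.26, evenness 0.0982 (group 0.00429), own spleen 26.0 (group 7.41), own minus other 26.2 (group 8.17) and other glands 3.38. Weighted by counts, length was -0.0339, mismatches 0.245, unmutated -8.18 (group 21.0), charge 0.0529, IGHJ1 -1.88, IGHJ3 0.313, IGHV3 0.0827 and IGHV6 2.57, with 0 J genes and 0 families called. Evenness as 1 minus Gini was -0.0677, and own spleen in the same class -0.183.

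In merged tables, length was 0.212, mismatches 0.0700 (group 0.255), largest clonotype -8.68 (group 8.89), other glands 7.94 (group -14.5), charge 0.0770 and IGHV7 -0.281, with 0 J genes higher. In the others, length was 0.213, evenness -0.0226 (group 0.018), largest clonotype -5.21, own spleen -5.86 (group -19.4), own minus other -4.69 (group -17.6), other glands 4.74, charge 0.0763, IgA share of counts by group 29.4, IGHJ1 -2.01 and IGHJ3 1.179, with 0 J genes called and 1 family lower. Without PBS-T 2, 8 and 9, mismatches were 0.366 (group 0.000877), evenness -0.00972, largest clonotype -6.25, charge 0.0554 and IGHV10 -0.175, with 0 J genes higher. Without PBS-T 5 as well, mismatches were 0.352 (group 0.117), unmutated by group 1.36, evenness -0.013, largest clonotype -6.26, other glands by group -9.15 and charge 0.0568.

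V genes called higher numbered 2 with TMM, 2 with DESeq2 (2 lower), 13 without the filter (41 lower), 1 with counts, 8 by sign-flip (7 lower) and, also without the filter, 9 for coding genes (15 lower), 0 with a minimum of 2 counts, 14 in merged tables (23 lower) and 1 in the others (7 lower, IGHV1-64 log2 fold change -0.0175).

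Leaving out each mouse in turn gave 0.189 to 0.245 for length (group 0.150 to 0.273), 0.307 to 0.428 for mismatches (group -0.245 to -0.0360), -23.9 to -21.6 for unmutated (group -10.6 to -5.21), -0.00588 to 0.0108 for evenness (group -0.0842 to -0.0361), -7.80 to -5.19 for the largest clonotype (group -4.96 to 2.13, positive without NOD-FMT 3 or 9), 0.00942 to 2.59 for own spleen (group -12.1 to -5.72), 1.23 to 3.71 for own minus other (group -10.3 to -4.31), 5.18 to 6.72 for other glands and 0.0657 to 0.0900 for charge (group 0.0679 to 0.141). The group difference for other glands ran from -10.5 to -7.62 and passed without NOD-FMT 4 or PBS-T 2, 4 or 5. In these runs the mouse left out still counted among the other glands and other spleens of the remaining mice. The same holds for the runs without several PBS-T glands and within the merged tables or the others. They therefore do not show how far sharing depends on matches to the mice left out. The IgA share of counts by group ran from 13.9 to 24.3. Calls numbered 0 to 1 J genes higher and 0 to 1 lower, 1 family higher and 5 to 6 lower, 3 to 5 V genes higher and 0 lower, and 0 V genes by group. Gland minus spleen ran from 0.108 to 0.158 for length (passing without NOD-FMT 6, PBS-T 4, 6 or 7, or NC 2 or 4), -2.68 to -2.59 for mismatches, 27.7 to 29.5 for unmutated, 0.0727 to 0.0928 for evenness and 0.0115 to 0.0408 for charge. IGHJ1 ran from -0.124 to 0.925, IGHV10 from -0.108 to 0.286 and IGHV7 from -0.134 to 0.106.

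Mice of the same number in NOD-FMT and PBS-T shared only a number, with correlations of their deviations from -0.584 to 0.826. With the replicate number as a block the group differences were 0.220 for length, -0.162 for mismatches, -7.85 for unmutated, -0.0572 for evenness, -1.95 for the largest clonotype, -7.94 for own spleen, -6.43 for own minus other, -8.87 for other glands, 0.0899 for charge and 21.5 for the IgA share of counts, with no call changed.

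Depth limits the non-IgA part most in most glands, with as few as 106 clonotypes in PBS-T 4, so rare V genes and shares there rest on few sequences. In PBS-T 2, 3 and 9 the IgA part held fewer clonotypes (260, 407 and 311) than the non-IgA part (316, 476 and 686).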

Other observations

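HCDR3 net charge was also compared between groups within each class, a comparison chosen after the data were seen and adjusted over 18 tests of 9 measures in both parts. IgA clonotypes had a mean charge of 0.0938 ± 0.143 in NOD-FMT glands, from -0.0873 to 0.274, and of -0.238 ± 0.0745 in PBS-T glands, from -0.349 to -0.112. The ranges did not overlap, and the difference was 0.332 (exact permutation p = 3.25e-05, adjusted p = 5.85e-04). It was 0.326 in the merged tables (exact permutation p = 0.00476) and 0.380 in the others (exact permutation p = 0.00794). The untreated NC glands lay at -0.155 ± 0.0386.

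Non-IgA clonotypes moved in the same direction, with -0.0438 ± 0.116 in NOD-FMT and -0.275 ± 0.159 in PBS-T glands (exact permutation p = 0.00131, adjusted p = 0.0118). Within the merged tables that difference was 0.221 (exact permutation p = 0.0857) and within the others 0.2695 (exact permutation p = 0.0159). Of the remaining 16 tests none passed, with adjusted p from 0.140.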
